A study of Mus musculus with 6 samples.

Results

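T cells read signals on the surface of the cells that present antigen to them, and the ligands that carry these signals fall into a few families. CD80, CD86 and ICOSL of the B7 family engage CD28 or ICOS and add to activation, whereas PD-L1 and PD-L2 engage PD-1 and restrain it. B7-H3, B7-H4 and galectin-9 are further ligands linked to restraint of T cells, and the nectin-type proteins CD155 and CD112 are shared by the activating receptor CD226 and the inhibitory receptor TIGIT. Endothelial cells line blood and lymph vessels, meet circulating T cells, and are known to carry some of these ligands.

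The 10 genes that encode these ligands were described in endothelial cells of the mouse small intestine. They were Cd80, Cd86 and Icosl (costimulators of the B7 family), Cd274 and Pdcd1lg2 (PD-L1 and PD-L2), Cd276 and Vtcn1 (B7-H3 and B7-H4), Lgals9 (galectin-9), and Pvr and Nectin2 (CD155 and CD112). They were read by 17 of the 56605 probes of the array, and were 10 of the 22911 genes that a probe could be named for.

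The study compared vascular endothelial cells (VECs), the lining of blood vessels, with lymphatic endothelial cells (LECs), the lining of lymph vessels. VECs were sorted as CD45-CD31+CD90- cells and LECs as CD45-CD31+CD90+ cells from small intestines freed of Peyer's patches, where CD45 marks blood cells, CD31 endothelium and CD90 the lymphatic fraction. There were 3 VEC arrays (VEC 2, 3 and 4) and 3 LEC arrays (LEC 6, 7 and 8), all from female mice, with no treatment named for either group, and RNA from a small number of sorted cells was amplified before it was hybridised. The labels did not give the strain or age of these mice. Naive B6D2F1 mice were named for other intestinal sorts of the study, but not for the arrays. Titles and source names set the groups, although the free-text description of the LEC samples spoke of VECs. Whether each array had its own mouse is not stated in the labels, so p-values measure the spread between these samples, which may be technical.

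The endothelial markers followed the titles. All 7 lymphatic markers were higher in LECs, among them Prox1, the transcription factor of lymphatic identity, by 41.3-fold, and all 7 blood vascular markers were lower, among them Flt1, a receptor for vascular endothelial growth factor, by 59.0-fold. Of 7 markers shared by all endothelium, 5 were lower in LECs, Pecam1 (CD31) and Cdh5 among them. The call of Erg, another of these, was lost without scaling between arrays and with the row of the slide as a block. Over all tested genes, 34.9% were called higher in LECs and 32% lower. Markers of other cells were read as well. The summed linear signal, relative to the 75th percentile of each array, of 20 dendritic and myeloid markers was 83.8 to 89.5 in VECs and 71.1 to 76.4 in LECs, of which Itgam made up 88.3% to 90.5%. Without Itgam it was 9.42 to 9.80 in VECs and 6.83 to 7.26 in LECs. The sum hides markers that went both ways. Aif1, Adgre1, Lyz2, C1qa, C1qb and Cx3cr1 were called higher in LECs, and Cd68, Cd14, Mertk, Zbtb46, Batf3 and Itgam lower. Flt3, Xcr1, Clec9a and Fcgr1 were not well above background on any array. The sum of 9 B cell markers was 2.81 to 3.21 in VECs and 3.66 to 4.13 in LECs. That of 10 T cell markers was 12.5 to 16.7 and 12.5 to 14.3. That of 12 epithelial markers was 4.23 to 6.84 in VECs and 7.23 to 8.52 in LECs, and that of 8 fibroblast markers was 0.92 to 1.58 and 2.21 to 2.98. That of 9 smooth muscle and pericyte markers was 44.1 to 52.2 in VECs and 30.9 to 40.7 in LECs. Among these sums, only that of T cell markers overlapped between the groups. Without the gene with the highest signal of each list, the epithelial sum (without Lgals4, 2.01 to 4.28 and 2.24 to 2.76) and the smooth muscle sum (without Acta2, 18.5 to 24.6 and 15.2 to 22.7) also overlapped, and the T cell sum (without Cd247, 6.16 to 7.72 and 8.45 to 9.11) did not. The T cell markers also went both ways. Of the 8 tested, Lck, Cd3d and Cd5 were called higher in LECs, and Cd3e, Cd247, Cd4 and Cd8b1 lower. The calls of Cd3e and Cd4 were lost without scaling between arrays. The part of other cells in the values of the ligands was not tested. In sorted populations, fewer cells of a type and less RNA per cell cannot be told apart.

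A probe entered the test if all 3 arrays of either group read it well above background, and the brightest tested probe of a gene stood for it. Signals were compared on a log2 scale after each array had been set to its own 75th percentile, and a difference was called at a limma adjusted p under 0.05, adjusted over all probes tested. Of the 10 ligand genes, 6 were tested. Nectin2 and Lgals9 were higher in LECs, Pvr and Cd276 were lower, and Cd274 and Cd80 did not pass. Of all 14971 tested genes, 34.9% were called higher in LECs and 32% lower. Thus 2 of 6 in each direction was close to the share over all genes. Of the 33776 tested probes, 31.2% were called higher and 32.8% lower, and of the 8 tested probes of the ligand genes, 3 were higher and 3 lower. The median difference of the 6 ligand genes was -0.29 (log2), beside 0.02 over all tested genes. Without scaling, 12922 probes were higher and 6916 lower, in place of 10537 and 11066, and the median difference over all probes moved from -0.03 to 0.20.

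**Figure D1:**
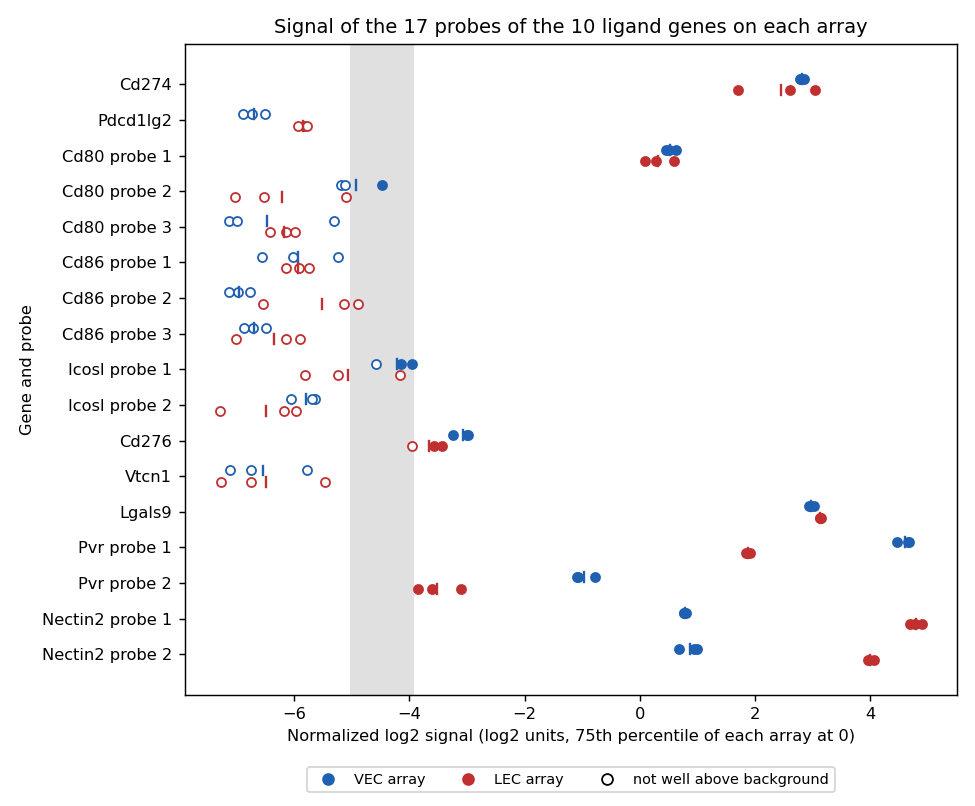
Normalized log2 signal (x axis, log2 units, 75th percentile of each array at 0) of each of the 17 probes of the 10 ligand genes (rows) on the VEC arrays (blue) and LEC arrays (red). Open points were not well above background, short bars are group means, and the grey band spans the lowest signals well above background on the 6 arrays. Nectin2 and Pvr separate the groups in opposite directions, whereas Pdcd1lg2, Cd86 and Vtcn1 lie to the left of or within the band on every array.

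The nectin-type ligands differed most. Nectin2, an adhesion molecule of cell junctions that is bound by TIGIT and CD226, was read by probe A_55_P2167025 with intensities of 633.6, 564.3 and 639.0 in VECs and of 11200, 11428 and 12115 in LECs. Every LEC array was far above every VEC array. The difference was 4.02 on the log2 scale (SE 0.074, n = 3 per group, limma adjusted p = 5.8e-07), or 16.2-fold higher in LECs, with a 95% interval from 14.3 to 18.4. A difference at least as high was seen for 303 of the 14971 tested genes, or 2.02%.

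The other Nectin2 probe, A_52_P188678, which was designed to a different RefSeq transcript of the gene, gave 719.2, 641.0 and 605.1 in VECs and 6777.3, 6365.4 and 6870.6 in LECs. The direction was the same and the groups again did not overlap. The difference was 3.12 (SE 0.098, n = 3 per group, limma adjusted p = 2.7e-06), or 8.72-fold, with an interval from 7.39 to 10.3. Within an array, the log2 signal of the first probe minus that of the second was -0.18, -0.18 and 0.08 in VECs and 0.72, 0.84 and 0.82 in LECs. The probes thus differed in the size of the change, with no overlap between the groups. The exact permutation test gave the smallest two-sided p that 3 against 3 arrays allow, p = 0.1 (0.2 after Benjamini-Hochberg adjustment over the 2 genes with a probe pair tested).

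Pvr, the gene of the poliovirus receptor CD155 and likewise a ligand of TIGIT and CD226, ran the other way. Probe A_52_P162695 gave intensities of 9148.4, 8542.5 and 8269.7 in VECs, against 1551.2, 1441.5 and 1602.4 in LECs. All VEC arrays were above all LEC arrays. The difference was -2.73 (SE 0.081, n = 3 per group, limma adjusted p = 2.2e-06), or 6.61-fold higher in VECs, with a 95% interval from 5.76 to 7.59. A difference as low or lower was seen for 613 tested genes, or 4.09%.

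The other Pvr probe, A_51_P237097, was dimmer, at 212.4, 156.4 and 179.4 in VECs and 30.0, 44.2 and 36.3 in LECs. It gave the same direction with no overlap, and its difference was -2.54 (SE 0.20, n = 3 per group, limma adjusted p = 1.1e-04), or 5.83-fold. The gap between the Pvr probes within an array was 5.43, 5.77 and 5.53 in VECs and 5.69, 5.03 and 5.46 in LECs, so that the groups overlapped (exact permutation p = 0.5, also after adjustment). Older annotation gave the symbol Pvr as a synonym of Nectin2, and the 4 probes were assigned through their transcript accessions rather than their symbols.

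The opposite changes were also taken within each array, where the level of labelling cancels. The log2 signal of Pvr minus that of Nectin2 was 3.85, 3.92 and 3.69 in VECs (mean 3.82 ± 0.12, SD, n = 3) and -2.85, -2.99 and -2.92 in LECs (mean -2.92 ± 0.067, SD, n = 3). The ranges of the groups did not overlap. The sign of such a value does not say which transcript was more abundant, since probes differ in how they bind. The difference of -6.74, or 107-fold in the ratio, came with the smallest two-sided p that an exact permutation of 3 against 3 arrays can give, p = 0.1. With the other probe of each gene it was -5.67, and the value was then below 0 on every array, at -1.76, -2.04 and -1.75 in VECs and -7.82, -7.17 and -7.56 in LECs. Of 4 ligand pairs set out for this comparison, this was the only 1 in which both genes were measured. The other 3 were Cd274 with Pdcd1lg2, Cd80 with Cd86, and Cd276 with Vtcn1.

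Nectin2 and Pvr lie on chromosome 7 with 9 annotated genes between them. The promoter of Nectin2 is printed because it belongs to the tested ligand gene with the largest difference. RefSeq gives it at chr7:19749524-19749823 on the minus strand of GRCm38.p6, from 250 bases before the start to 50 bases after it. It holds 20 CpG dinucleotides, beside a median of 7 over all 32851 promoters of the table.
Nectin2: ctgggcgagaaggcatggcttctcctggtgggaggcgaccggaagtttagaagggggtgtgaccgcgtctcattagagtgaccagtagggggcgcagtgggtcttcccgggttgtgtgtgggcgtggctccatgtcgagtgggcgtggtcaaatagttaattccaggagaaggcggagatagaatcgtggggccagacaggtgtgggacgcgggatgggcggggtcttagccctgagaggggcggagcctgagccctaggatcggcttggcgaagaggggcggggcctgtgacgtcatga

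**Figure D2:**
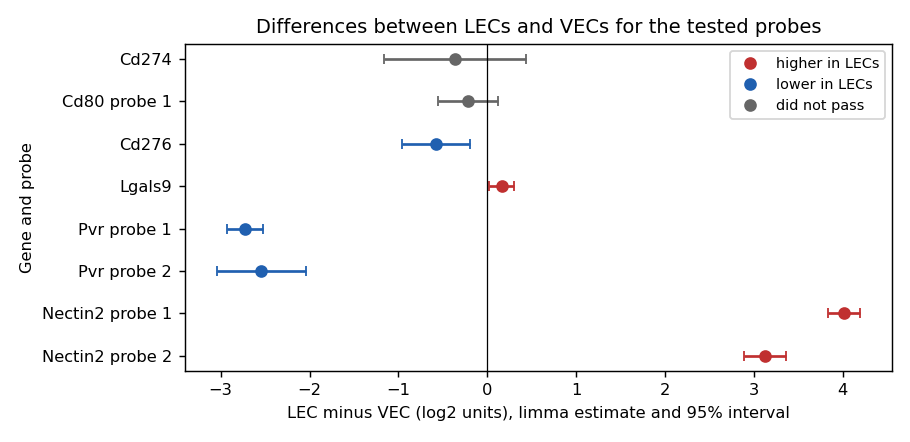
Difference between LECs and VECs (x axis, log2 units, LEC minus VEC) with its 95% interval from limma for the 8 tested probes of the ligand genes (rows). Red probes were higher in LECs, blue probes lower, and grey probes did not pass. The intervals of Nectin2 and Pvr lie far from 0 on opposite sides, and those of Cd274 and Cd80 span 0.

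Of the PD-1 ligands, only Cd274 was measured. Cd274 encodes PD-L1, which engages PD-1 on T cells and is induced by interferons in many cell types. Its probe, A_51_P248666, rose well above background on each of the 6 arrays, with intensities of 2503.7, 2392.8 and 2611.2 in VECs and 1400.9, 3124.4 and 2685.5 in LECs. The VEC arrays lay close together, while LEC 6 was below all of them and LEC 7 and 8 were above them in intensity. After scaling LEC 8 was also below the VEC arrays, the SD was 0.030 in VECs and 0.68 in LECs, and the groups overlapped. The difference was -0.36 (SE 0.33, n = 3 per group, limma adjusted p = 0.36), with a 95% interval from -1.17 to 0.44 on the log2 scale.

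A single array decided this value. Without LEC 6 the difference was 0.01 (limma adjusted p = 0.96), and without LEC 7 it was -0.66 (adjusted p = 0.0925). All arrays lay on 1 slide, with the VEC arrays and LEC 6 in slide row 1 and LEC 7 and LEC 8 in row 2. With slide row as a block, which leaves LEC 6 against the VECs of its row, the difference was -1.11 (limma adjusted p = 0.0064). Slide row and the spread among LEC arrays cannot be told apart.

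In LEC 6, Cd274 was 1.12 lower on the log2 scale than the mean of LEC 7 and LEC 8. Only 129 of the 14971 tested genes, or 0.86%, were lower there by at least 1. LEC 6 was the lowest LEC array for 10 of 20 listed regulators of Cd274, beside 29.5% of all tested genes. The median of LEC 6 minus the mean of LEC 7 and LEC 8 was -0.01 for these regulators and 0.03 over all tested genes. None of these regulators was lower in LEC 6 by at least 1, and Cmtm4 was higher by 1.16. Nlrc5 and Ciita, the activators of class I and class II antigen presentation genes, were lower by 0.74 and 0.92. Irf1, an interferon-induced factor known to act on the Cd274 promoter, was lower by 0.16, whereas the receptor chains Ifngr2 and Ifnar2 were higher there by 0.11 and 0.12. The order of LEC 6 below LEC 8 below LEC 7, which Cd274 had, was shared by 9 of 20 listed regulators of Cd274 and 8 of 11 antigen presentation genes, beside 19.3% of all tested genes. Nectin2 and Pvr had the same order with far smaller gaps. These arrays share their hybridisation, and the order was noticed after the values were seen, so it is given as a description.

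**Figure D3:**
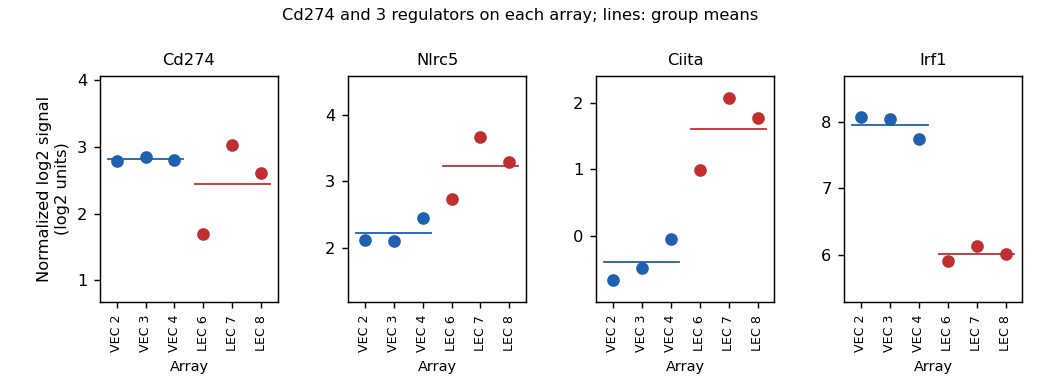
Normalized log2 signal (y axis, log2 units, each panel spanning the same range) of Cd274, Nlrc5, Ciita and Irf1 on the VEC arrays (blue) and LEC arrays (red). Lines are group means. Nlrc5, Ciita and Irf1 are from the list of 20 Cd274 regulators. LEC 6 was the lowest LEC array for 10 of these 20, and Cmtm4, not shown, was higher there by 1.16. LEC 6 is the lowest LEC array in each panel, by 1.12 from the mean of the other LEC arrays for Cd274 and by 0.16 for Irf1.

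Pdcd1lg2, the gene of PD-L2, was at the level of background. Its probe, A_55_P2187141, gave 3.05, 3.68 and 3.54 in VECs and 7.56, 6.25 and 8.03 in LECs, while the lowest intensity well above background was 12.1 to 25.1 across the arrays. No array exceeded background, and the values have no order that can be read. Cd274 and Pdcd1lg2 are neighbours on chromosome 19 with no annotated gene between them. Their promoters, from 250 bases before to 50 after the start in RefSeq, are printed because 1 of these neighbours was well above background on every array and the other on none. They lie at chr19:29367188-29367487 and chr19:29410669-29410968, both on the plus strand of GRCm38.p6, and capitals mark the element GAAANNGAA, to which interferon regulatory factors bind, on either strand (TTCNNTTTC on the other).
Cd274: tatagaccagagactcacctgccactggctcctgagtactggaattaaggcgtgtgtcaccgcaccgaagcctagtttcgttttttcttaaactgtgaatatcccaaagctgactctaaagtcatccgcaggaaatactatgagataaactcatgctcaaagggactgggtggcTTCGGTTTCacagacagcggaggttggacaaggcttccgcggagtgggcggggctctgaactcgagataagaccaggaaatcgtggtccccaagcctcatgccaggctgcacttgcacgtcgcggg
Pdcd1lg2: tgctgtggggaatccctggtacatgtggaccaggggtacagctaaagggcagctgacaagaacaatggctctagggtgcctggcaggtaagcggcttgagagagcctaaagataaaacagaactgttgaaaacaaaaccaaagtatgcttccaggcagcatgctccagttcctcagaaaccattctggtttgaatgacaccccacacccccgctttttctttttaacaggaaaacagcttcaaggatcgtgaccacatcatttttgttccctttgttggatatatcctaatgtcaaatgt

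The Cd274 promoter held 1 match, whose first base was 76 bases before the start, and the Pdcd1lg2 and Nectin2 promoters held none. Of the 8 ligand genes with a promoter in the table, Lgals9 held the most, with 2, and all but Lgals9 and Cd274 held none. The element was found in 8.56% of the 32851 promoters of the same length. The gamma-activated site TTCNNNGAA of interferon gamma target genes was found in 8.3% and in none of these 3 promoters. The Cd274 window held 15 CpG dinucleotides and the Pdcd1lg2 window 3. A match is a description of letters and not a site of binding.

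The B7 costimulators were barely measured. Cd80, which is carried by activated antigen presenting cells, had 3 probes that did not give the same picture. Probe A_55_P2001218 was well above background on every array, at 497.2, 471.6 and 583.4 in VECs and 459.9, 460.6 and 662.7 in LECs. The groups overlapped, and the difference was -0.21 (SE 0.14, n = 3 per group, limma adjusted p = 0.21), with an interval from -0.55 to 0.12. Without LEC 8 it was -0.35 and passed (limma adjusted p = 0.036).

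The other Cd80 probes were at or near background. A_52_P244005 was well above background on VEC 2 alone, at 16.3, with 9.1 and 10.8 on the other VEC arrays and 3.3, 11.1 and 4.8 in LECs. A_66_P130432 was above background on none, at 2.6 to 8.4. A level of Cd80 thus rests on 1 of 3 probes.

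Cd86, the other ligand of CD28, stayed at background on every array with each of its 3 probes, which lay between 2.6 and 12.8. Icosl, the ligand of ICOS, was close to the limit. Its probe A_55_P2747083 gave 23.3, 13.97 and 21.29 in VECs, of which VEC 2 and VEC 4 were above background, and 11.4, 21.30 and 7.83 in LECs, of which none was. The groups overlapped in intensity, and the gene was not tested. The other Icosl probe, A_52_P432647, was above background on none, at 2.8 to 7.3. At these intensities a low level could not be told from none.

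The B7 homologues B7-H3 and B7-H4 are surface proteins whose receptors are less well known. Cd276, the gene of B7-H3, was dim on A_55_P2716641, at 45.0, 35.2 and 47.5 in VECs and 40.1, 24.5 and 36.9 in LECs, with LEC 7 not well above background. After scaling every LEC array was below every VEC array. The difference was -0.58 (SE 0.16, n = 3 per group, limma adjusted p = 0.018), or 1.49-fold higher in VECs, with an interval from 1.15 to 1.94. The call depended on the arrays and on scaling. The adjusted p was 0.0579 without VEC 2 and 0.0561 without VEC 4, 0.19 without scaling (difference -0.35) and 0.187 with slide row as a block (difference -0.35). Cd276 was the only tested ligand gene that was not well above background on all 6 arrays, and it entered the test through VECs alone. Vtcn1, the gene of B7-H4, was not above background on any array, at 2.6, 3.1 and 6.8 in VECs and 2.8, 8.6 and 4.1 in LECs.

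Lgals9 encodes galectin-9, a carbohydrate-binding protein that is a ligand of TIM-3. Probe A_55_P2070079 was clear of background throughout, at 2778.5, 2598.8 and 3044.8 in VECs and 3816.5, 3350.0 and 3862.5 in LECs. The difference was small and the groups did not overlap. It was 0.16 (SE 0.057, n = 3 per group, limma adjusted p = 0.048), or 1.12-fold higher in LECs, with an interval from 1.02 to 1.23. A difference at least as high was seen for 40.9% of the tested genes. The call was lost when any of VEC 2, VEC 3, LEC 6, LEC 7 or LEC 8 was left out, with adjusted p from 0.0947 to 0.157, and with slide row as a block (difference 0.17, adjusted p = 0.154).

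**Figure D4:**
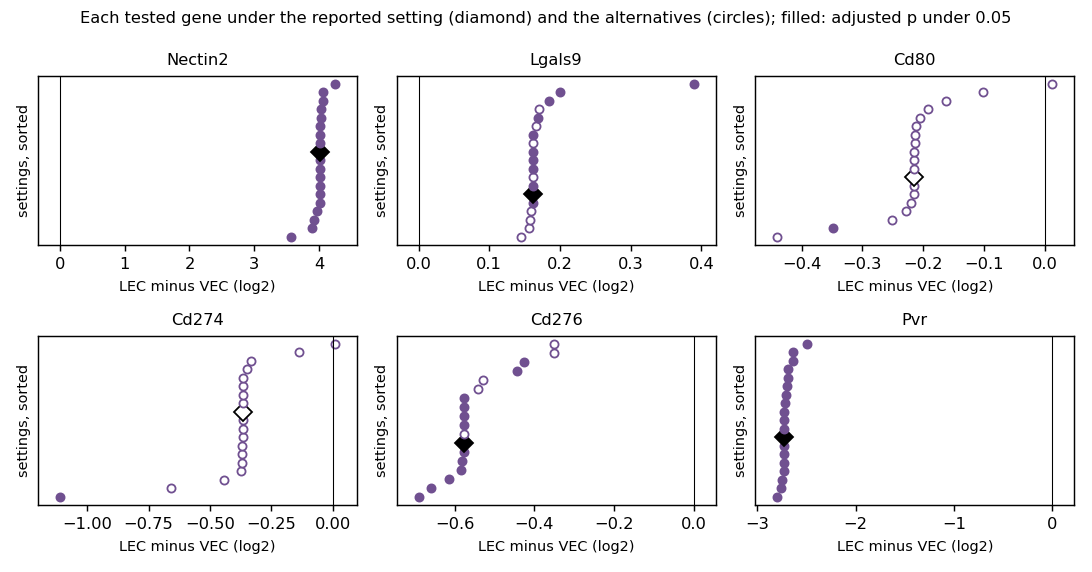
Difference between LECs and VECs (x axis, log2 units) of each tested ligand gene under the reported setting (diamond) and each alternative (circles), sorted by size along the y axis. Filled symbols had an adjusted p under 0.05. Nectin2 stays between 3.57 and 4.24 and Pvr between -2.80 and -2.50 with every symbol filled, whereas Cd276 and Lgals9 hold filled and open symbols.

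Other ligands of T cell receptors moved in both directions. Of 28 such genes, 20 were tested, of which 7 rose in LECs, 8 fell and 5 missed the threshold, which is close to the 34.9% and 32% over all tested genes. Their median difference was -0.06, beside 0.02 over all tested genes, and without scaling it was 0.16 with 8 higher and 7 lower. The largest rise was in Lgals3, the gene of galectin-3, at 18.2-fold (limma adjusted p = 1.9e-05). Btnl9, a butyrophilin-like member of the wider B7 family, was higher by 11.5-fold (limma adjusted p = 1.2e-05). Nectin1, an adhesion molecule related to Nectin2, was higher by 2.72-fold (limma adjusted p = 6.1e-05).

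The largest falls were in Tnfsf9, which encodes the ligand of 4-1BB and was 13.0-fold lower in LECs (limma adjusted p = 8.1e-04), and Ceacam1, an adhesion molecule that also binds TIM-3, which was 6.34-fold lower (limma adjusted p = 3.8e-06). Ido1, an enzyme that breaks down tryptophan and restrains T cells, was 4.57-fold lower (limma adjusted p = 8.4e-04). Nectin4, another nectin, differed by -0.01 (limma adjusted p = 0.97). Vsig4, Tnfsf4, Cd70, Tnfsf14, Fgl1, Btn2a2 and Btnl1 were not well above background on any array.

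The receptors of these ligands are carried mainly by T cells and natural killer cells, and 9 of the 14 that the array named were not tested. Ctla4, Havcr2 (TIM-3), Cd226, Tigit, Cd96, Btla and Cd160 were well above background on no array. Of the 5 tested, 2 were called higher in LECs and 3 lower, beside 34.9% and 32% over all tested genes. Cd2 was higher in LECs by 58.8-fold (limma adjusted p = 1.1e-06) and Pdcd1, the gene of PD-1, by 2.37-fold (limma adjusted p = 1.1e-04). Both were dim in VECs, with intensities of 25.7 to 34.0 for Cd2 and 40.6 to 45.6 for Pdcd1. Cd28 was dim on every array, at 43.1 to 78.6. Lag3, which was well above background on 1 of 3 LEC arrays and entered the test through VECs alone, was 2.51-fold lower (limma adjusted p = 0.0062), Cd28 1.57-fold lower (limma adjusted p = 0.0021) and Cd244a 1.44-fold lower (limma adjusted p = 0.0057). The calls of Cd28 and Cd244a were lost without scaling. The call of Cd244a rests on 1 of its 2 probes, since the other was not tested.

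The listed regulators of Cd274 were called in either direction about as often as all tested genes (34.9% higher and 32% lower). The list holds interferon receptors, kinases, transcription factors and other genes such as Cmtm4, Cmtm6 and Spop. Whether they act on Cd274 in these cells was not tested. All 20 genes were tested for a difference, and 6 were higher in LECs, 8 lower and 6 did not pass. Their median was -0.13 (0.10 without scaling, with 7 higher and 5 lower). Ciita was higher by 4.01-fold (limma adjusted p = 0.0018) and Nlrc5 by 2.01-fold (limma adjusted p = 0.012). The call of Nlrc5 was lost with slide row as a block. Irf1 was 3.82-fold lower (limma adjusted p = 3.1e-05), as was Hif1a, the oxygen-regulated factor, by 2.30-fold (limma adjusted p = 1.5e-05), and Jak2, a kinase of the interferon gamma receptor, by 2.15-fold (limma adjusted p = 6.0e-05).

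Antigen presentation supplies the signal that costimulators and checkpoint ligands add to. Of its 11 listed genes, 8 were higher in LECs, none was lower and 3 did not pass, beside 34.9% higher and 32% lower over all tested genes, with a median of 1.47. The class II genes led. H2-Eb1 was higher by 7.09-fold (limma adjusted p = 2.2e-04), H2-Aa by 5.78-fold (limma adjusted p = 1.3e-04) and H2-DMb1, which helps to load peptide onto class II, by 4.97-fold (limma adjusted p = 4.8e-05). Of the class I genes, H2-K1 was higher by 1.24-fold (limma adjusted p = 0.0070) and H2-D1 by 1.32-fold (limma adjusted p = 0.0046). The call of H2-K1 was lost with slide row as a block. B2m, Tap1 and Tap2, which also serve class I, did not pass.

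Of the 20 dendritic and myeloid markers, which cells rich in Cd80 and Cd86 would carry, 6 were higher in LECs, 6 lower, 3 did not pass and 5 were not tested, beside 34.9% higher and 32% lower of all tested genes, with a median of 0.03. Aif1 was higher by 7.20-fold (limma adjusted p = 6.6e-05), Adgre1 by 5.98-fold (limma adjusted p = 0.0096) and Lyz2 by 4.48-fold (limma adjusted p = 0.022). Adgre1, C1qa and Cx3cr1 were well above background on 2 of 3 VEC arrays and Lyz2 on 1. They entered the test through LECs alone, and their folds rest in part on background readings. Of the 6 markers called higher, only Aif1 and C1qb did not enter in this way. The calls of Adgre1, C1qa, Lyz2 and Itgam were lost with slide row as a block. Mertk was 5.38-fold lower (limma adjusted p = 6.4e-06), Batf3 5.17-fold lower (limma adjusted p = 2.0e-05) and Cd68 2.23-fold lower (limma adjusted p = 7.3e-05). CD45, by whose absence the cells were sorted, is encoded by Ptprc, which was well above background on 2 of 3 arrays in each group. Its intensities on the brighter of its 2 probes were 14.6, 5.68 and 18.6 in VECs and 30.5, 23.9 and 37.5 in LECs. VEC 3 and LEC 7 were not well above background, so no order of the groups can be read, and the gene was not tested.

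**Figure D5:**
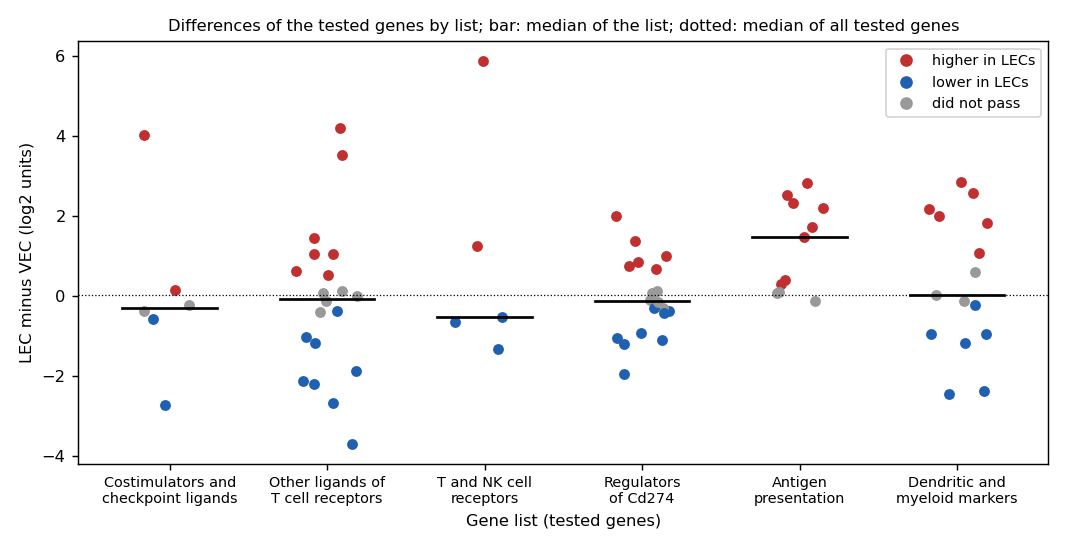
Difference between LECs and VECs (y axis, log2 units, LEC minus VEC) of the tested genes of the ligand list and 5 related lists (x axis). Each point is a gene, red where called higher in LECs, blue where lower and grey where it did not pass; bars are list medians and the dotted line is the median of all tested genes, 0.02. Antigen presentation has a median of 1.47 and no gene called lower, while the ligand lists spread to both sides of 0.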

How the data were processed

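RNA of sorted VECs and LECs was labelled with Cy3 and hybridised to 1-colour Agilent mouse arrays, 3 per group. Per the labels and the file headers, the authors scanned the arrays and extracted them with Agilent Feature Extraction 12.0.3.1. The deposited intensity used here is the background-corrected processed signal of each spot. The deposited log2 table of the same arrays equalled the log2 intensity minus 1 constant per array, near the 75th percentile, and was used as an alternative only.

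Probes were named through their RefSeq accessions (32994 of 56605 probes, 58.3%). Outlier spots were left out, spots of a probe were averaged, and log2 intensity minus the 75th percentile of each array was tested with limma 3.58.1 in R 4.3.3 (lmFit, eBayes, Benjamini-Hochberg adjustment over 33776 probes), with no covariate. The fit was tested on simulated data. The number of arrays limits the precision. Promoters were read from a RefSeq table of GRCm38.p6, which held 8 of the 10 genes (not Cd86 or Pvr). The array headers name mm9, and no position of that build was used.

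All ligand genes were named with every probe, and of each related list up to 3 genes in each direction with the largest called difference. 1 gene that this rule would name is not reported here. Genes named as not passing, below background or as markers were added to describe a list, as were H2-K1 and H2-D1. The ligand genes, lists and tests were chosen with earlier results of these data known. Alternatives covered background correction, scaling, filters, outlier spots, the methods' one-way test, an intensity trend, slide row, the deposited table, probe choice, threshold and leaving out each array. The background alternative used median signals.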

Additional observations from a re-analysis of the deposited data

How the results depend on the processing

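Of the tested ligand genes, only those that did not pass changed sign, Cd274 to 0.0096 without LEC 6 (-0.66 to 0.0096 when each array was left out) and Cd80 to 0.012 without scaling. Nectin2 (3.57 to 4.24) and Pvr (-2.80 to -2.50) kept their calls in all 18 alternatives. The number of ligand genes higher in LECs was 1 in place of 2 with median scaling, with slide row as a block and at an adjusted p under 0.01, and 1 to 2 when each array was left out in turn. The number lower in LECs was 1 in place of 2 without scaling, with the filter on all 6 arrays, with the methods' one-way test and at an adjusted p under 0.01, and 1 to 3 when each array was left out (3 without LEC 8). Probes lower in LECs numbered 6916 without scaling, in place of 11066. Lgals9 lost its call in 8 alternatives, among them no filter on dim probes (adjusted p = 0.16), and Cd276 in 5, with differences there from -0.58 to -0.35. The cause was not tested. Cd274 reached -1.11 and Cd80 -0.44 at the lowest, and each passed in 1 alternative. The Pvr and Nectin2 pair difference was -6.52 with normexp on median signals, -6.20 with the mean of the probes and -5.67 with the other probe of each gene, an alternative chosen after seeing the data, as were quantile scaling and the deposited table for this pair. With normexp the dimmer Pvr probe gave -1.47. No paired analysis was run, because the labels do not say which VEC and LEC arrays, if any, came from the same mice. Signals under the lowest intensity well above background, 12.1 to 25.1, have no order, which limits Pdcd1lg2, Cd86, Icosl and Vtcn1.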
